A study of Homo sapiens with 6 samples.

Results

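The genes described here encode proteins that neutrophils and monocytes pack into granules, together with a pair of adaptors of myeloid surface receptors. AZU1, ELANE, PRTN3, CTSG, MPO and LYZ are the 6 granule genes, and TYROBP and FCER1G are the 2 adaptor genes. They were picked by symbol, after earlier results on the same libraries were known, as abundant mRNAs of 1 functional class. The selection used the contrast between the groups, so the levels, changes and calls of the 8 genes are given as a description, with no p-value. Calls come from the fit over all genes. All 8 were present among the 32268 gene rows used, and all 8 passed the filter on low values that left 18326 genes.

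RNA was sequenced from cells treated for 4 h with 500 nM of compound 28, which the series title calls a CDK9 degrader, and from cells given DMSO, for which no separate time is stated, with 3 libraries in each group. Both groups carried the genotype label WT and were grown in Leibovitz's L-15 medium with serum and antibiotics. The sample titles name MDA-MB-231, an adherent line derived from triple-negative breast cancer, but the source labels count upward to MDA-MB-236 across the 6 samples. The labels do not state whether the replicates came from different cultures, and the p-values below therefore reflect the spread of these libraries alone, which may be technical.

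Azurophil granules form at the promyelocyte stage of neutrophil development and hold antimicrobial enzymes that are released into phagosomes or outside the cell. The neutrophil serine proteases share a chymotrypsin fold and are made as inactive zymogens, which cathepsin C (CTSC) trims. TYROBP and FCER1G have almost no extracellular part and carry an ITAM, a tyrosine motif that recruits the kinase SYK once the receptor they are paired with is engaged. In myeloid precursors the granule genes are classically bound by the transcription factors PU.1, C/EBP and MYB.

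Promoter windows from RefSeq (GRCh38.p14) were held for 5 of the 8 genes, each running from 250 bases before to 50 bases after the gene's start. They were searched on both strands for GAGGAA (the PU.1 core), TTGCNNAA (C/EBP), AACNG (MYB) and TATAAA. The windows of AZU1 and PRTN3, neighbours on chromosome 19, and of CTSG, on chromosome 14, are shown because they hold the PU.1 and C/EBP letters found among the granule genes. They lie at chr19:827587-827886 (plus strand), chr19:840749-841048 (plus strand) and chr14:24576201-24576500 (minus strand). Capitals mark the matches to GAGGAA and TTGCNNAA on either strand.
AZU1: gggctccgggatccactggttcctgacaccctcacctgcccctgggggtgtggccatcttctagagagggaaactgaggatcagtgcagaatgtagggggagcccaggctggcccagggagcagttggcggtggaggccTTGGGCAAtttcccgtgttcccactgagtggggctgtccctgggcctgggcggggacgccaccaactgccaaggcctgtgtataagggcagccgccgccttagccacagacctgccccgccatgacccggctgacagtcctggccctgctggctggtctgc
PRTN3: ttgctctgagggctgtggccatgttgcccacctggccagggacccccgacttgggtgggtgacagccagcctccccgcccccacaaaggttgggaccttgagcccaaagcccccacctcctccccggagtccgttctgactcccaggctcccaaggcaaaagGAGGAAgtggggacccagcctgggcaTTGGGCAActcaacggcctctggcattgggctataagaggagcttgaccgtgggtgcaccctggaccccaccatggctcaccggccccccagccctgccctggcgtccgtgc
CTSG: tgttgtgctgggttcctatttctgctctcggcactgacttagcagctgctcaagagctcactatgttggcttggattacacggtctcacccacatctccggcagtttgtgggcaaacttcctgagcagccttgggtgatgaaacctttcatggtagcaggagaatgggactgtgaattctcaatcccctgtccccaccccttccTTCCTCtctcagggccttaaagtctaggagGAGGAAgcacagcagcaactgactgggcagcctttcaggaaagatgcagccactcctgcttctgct
The AZU1 and PRTN3 windows share the same 8 letters, TTGGGCAA, which are the reverse complement of a TTGCNNAA match. That match began 111 bases before the start of AZU1 and 62 bases before that of PRTN3. GAGGAA was found in 3 of the 5 windows, those of PRTN3, CTSG and TYROBP, and in 27.9% of all 35116 promoter windows. TTGCNNAA was found in 2 of the 5 and in 10.5% of all windows, and the short MYB letters in 5 of the 5 and in 77.2%. TATAAA was in 0 of the 5 windows and in 11.5% of all. A match describes letters only, and none of these windows was tested for binding.

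Marker lists went in large part against the cell type in the titles. Of 18 markers of the breast carcinoma line, 8 reached a mean of 5 CPM, a gene's reads scaled by the gene reads of its library, namely LGALS1 (1176 CPM), CD44 (209 CPM), VIM (83.7 CPM), TGFBI (50.8 CPM), PLAU (43.1 CPM), FOSL1 (19.4 CPM), ANXA1 (16.2 CPM) and the epithelial keratin KRT8 (9.26 CPM). LGALS1, CD44 and VIM are also expressed by leukocytes. MET had 2 reads, CAV1 had 5 reads and KRT7 had 7 reads over all 6 libraries, and EGFR, KRT19 and CAV2 had no row. All 8 pan-leukocyte markers and 8 of 10 myeloid markers reached 5 CPM, led by LCP1 (1070 CPM) and FLT3 (414 CPM). Of 7 mast cell and basophil markers 1 reached it, KIT (10.2 CPM), and of 9 lymphoid markers 1, NKG7 (27.9 CPM). The cells are therefore called here by their titles and treatments only. Gene reads came to between 28466674 and 34015170 in the compound 28 libraries and between 37153389 and 54774118 in the DMSO libraries. Pearson's r across genes was 0.980 to 0.983 within compound 28, 0.985 to 0.991 within DMSO and 0.829 to 0.848 between the groups. HBB, the beta-globin gene, had 695 reads in compound 28 replicate 2, 0 reads in the other compound 28 libraries and 1 read in all of DMSO.

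AZU1 encodes azurocidin, a protease homolog that has lost its enzymatic activity and that kills bacteria and attracts monocytes. In the authors' normalized counts, which are reads divided by 1 size factor per library, AZU1 had 87975, 85991 and 86407 in compound 28 replicates 1 to 3, against 51415, 39001 and 35887 in DMSO replicates 1 to 3. The 3 compound 28 libraries lay within a coefficient of variation of 1.21%, and the DMSO libraries, which were all lower, within 19.5%. The log2 change, compound 28 minus DMSO on log2(normalized count + 1), was 1.06 ± 0.13 (SE) with the authors' factors, against -0.40, called lower, under mitochondrial mRNA scaling and -0.055, not called, under ribosomal protein scaling. AZU1 alone took 0.200% ± 0.00491 of all gene reads in compound 28 and 0.133% ± 0.0260 in DMSO (SD, n = 3 each).

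The active serine proteases were also higher in compound 28 with the authors' factors, by unequal amounts, and all 3 were lower under mitochondrial mRNA scaling, described further on. CTSG, cathepsin G, a protease that cuts after aromatic residues, had 10068, 10765 and 12425 normalized counts in compound 28 and 5736, 4953 and 4588 in DMSO. Every compound 28 library of CTSG lay above every DMSO library, with a log2 change of 1.12 ± 0.11 (SE). ELANE, neutrophil elastase, which degrades elastin and bacterial outer membrane proteins, had 17020, 14896 and 18853 normalized counts in compound 28 and 12067, 8797 and 9576 in DMSO. The groups of ELANE did not overlap either, and its log2 change was 0.74 ± 0.13 (SE).

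PRTN3, proteinase 3, the autoantigen of granulomatosis with polyangiitis, stood closest between the groups among the proteases. It had 19845, 18416 and 21475 normalized counts in compound 28, against 16747, 12124 and 17206 in DMSO. The lowest compound 28 library was only slightly above the highest DMSO library, and the log2 change was 0.39 ± 0.13 (SE). This value ran between 0.23 and 0.48 when each library was left out in turn. The call of PRTN3 as higher was lost without DMSO replicate 2 (0.23), without compound 28 replicate 1 (0.39) and without compound 28 replicate 3 (0.33).

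MPO, myeloperoxidase, the haem enzyme that makes hypochlorous acid, was by far the scarcest of the granule mRNAs. It had 402, 474 and 420 normalized counts in compound 28 and 169, 185 and 318 in DMSO. With the authors' factors every compound 28 library was higher, with a log2 change of 1.00 ± 0.22 (SE), and DMSO replicate 3 was the highest of its group. In CPM the MPO groups overlapped, at 9.38, 11.1 and 9.48 in compound 28 and 5.33, 5.92 and 9.93 in DMSO, and its log2 change was -0.45 under mitochondrial and -0.11 under ribosomal protein scaling, neither called. LYZ, lysozyme, which cleaves bacterial cell walls and is made by monocytes as well as neutrophils, had 22121, 20041 and 21209 normalized counts in compound 28 and 11063, 12104 and 24480 in DMSO. DMSO replicate 3 lay above all compound 28 libraries, so the groups of LYZ overlapped and its log2 change of 0.51 ± 0.24 (SE) was not called. Without DMSO replicate 3 the log2 change of LYZ was 0.87 and was called; without each other library it ran between 0.29 and 0.54 and was not.

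DMSO replicate 3 was the highest of its group in some genes of the monocyte marker list, which does not include LYZ, and the lowest in others; the genes given here are named after their values were seen. S100A8 had 1.70 CPM there, against 0.310 and 0.416 CPM in DMSO replicates 1 and 2. S100A9 had 5.09 CPM in the same library, against 1.39 and 1.14 CPM, and MNDA had 4.06 CPM, against 1.73 and 1.75 CPM. CTSS, the most abundant of the list, had 60.3 CPM in that library, against 50.9 and 53.9 CPM, while CD68 had 0.188 CPM, against 0.219 and 0.208 CPM, and LST1 had 0 CPM, against 0.110 and 0.125 CPM. The 9 monocyte markers summed to 65.7 to 70.1 CPM in compound 28 and 54.6 to 71.4 CPM in DMSO, 1 of them (CTSS) reached 5 CPM, and S100A12 had no row. Their part in the LYZ values was not tested. Across genes, DMSO replicate 3 also differed more from DMSO replicates 1 and 2 than these did from each other. LYZ overlaps an antisense gene in GENCODE release 29, which had no row under its GENCODE name. With the strand setting of the counting not given in the sources used here, reads of the overlapping pair cannot be told apart.

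Both adaptor genes were higher in every compound 28 library with the authors' factors, and lower under mitochondrial mRNA scaling. TYROBP, which pairs with receptors such as TREM2 and SIRPB1, had 17615, 16208 and 17716 normalized counts in compound 28 and 10754, 8155 and 6930 in DMSO. FCER1G, the gamma chain shared by several Fc receptors, had 3812, 3322 and 3486 in compound 28 and 1708, 1626 and 1529 in DMSO. The log2 changes were 1.02 ± 0.14 for TYROBP and 1.13 ± 0.09 for FCER1G (SE). FCER1G had the tightest DMSO libraries of the 8 genes by coefficient of variation.

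**Figure D1:**
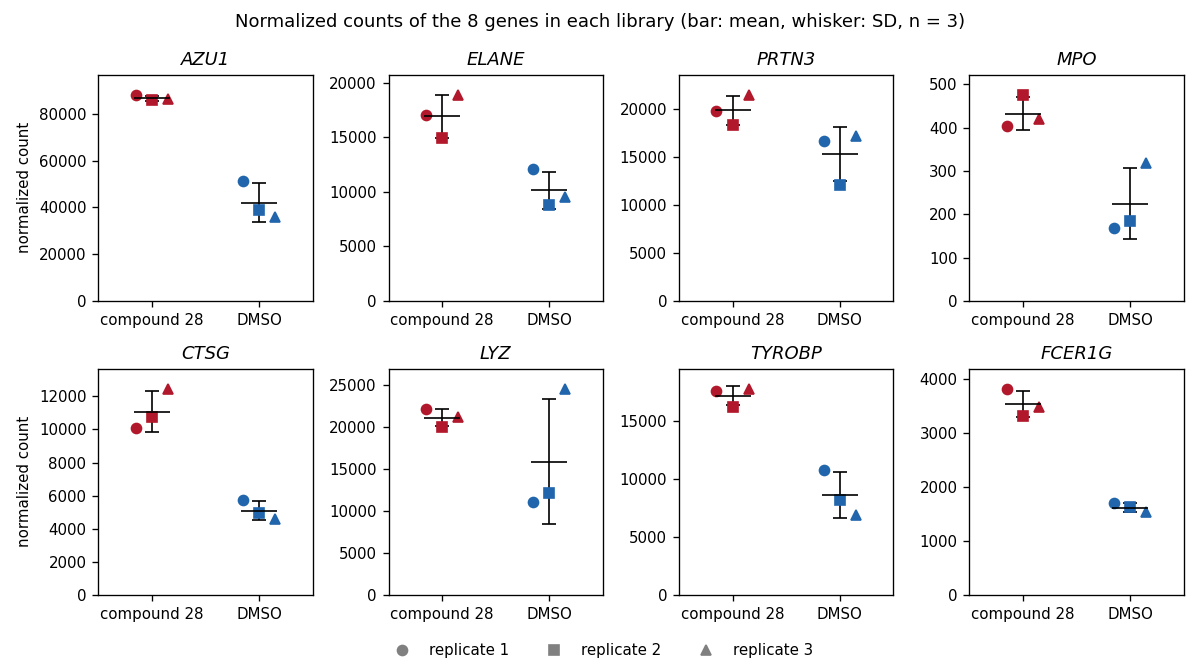
Normalized count (linear axis from 0, 1 panel per gene) in the 3 compound 28 libraries (red) and the 3 DMSO libraries (blue); points are libraries, bars group means and whiskers SD. The groups are apart, with compound 28 higher, in 7 genes, beside 37.0% of all genes tested. In LYZ, DMSO replicate 3 (24480) lies above all compound 28 libraries. Mitochondrial mRNA scaling would shift every log2 change by -1.46.

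With the authors' factors, 7 of the 8 genes were called higher in compound 28 and 0 lower in limma's test over all genes at an adjusted p under 0.05. Over all genes tested, 35.6% were called higher, 37.2% lower and 72.8% in either direction. The groups did not overlap, with compound 28 higher, in 7 of the 8 genes and in 37.0% of all genes tested. The median log2 change was 1.01 over the 8 genes and -0.03 over all genes. Since the 8 genes were picked with these values known, nothing is read from these counts. Together the 8 genes took 0.417%, 0.398% and 0.411% of gene reads in compound 28, against 0.346%, 0.279% and 0.314% in DMSO.

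The summed level of the 10 myeloid markers was 691 to 737 CPM in compound 28 and 1145 to 1329 CPM in DMSO. Markers are given in CPM, which scales on gene reads only, so the directions in this paragraph hold for that scaling. Relative to the authors' factors, gene reads only shifts every log2 change by -0.45, and mitochondrial mRNA scaling by -1.46. In CPM, CSF3R stood the other way from the myeloid sum, at 172 to 181 CPM in compound 28 and 121 to 140.0 CPM in DMSO. So did CD14, at 2.53 to 3.38 CPM in compound 28 and 0.475 to 0.565 CPM in DMSO. ITGAM overlapped between the groups, and the remaining markers were lower in every compound 28 library. SPI1, which encodes PU.1, and CEBPA are named because their letters were searched in the promoters. SPI1 had 118 to 134 CPM in compound 28 and 267 to 315 CPM in DMSO, and CEBPA had 1.47 to 1.97 CPM in compound 28 and 9.61 to 10.2 CPM in DMSO. The pan-leukocyte sum was 4082 to 4310 CPM in compound 28 and 3924 to 4343 CPM in DMSO. The part of any cell mixture in the values of the 8 genes was not tested, and in bulk RNA fewer cells of a type and less RNA per cell cannot be told apart. The erythroid and megakaryocyte markers summed to 46.7 to 72.2 CPM in compound 28 and 18.4 to 22.7 CPM in DMSO. Most of that sum was 1 gene, ITGA2B, at 47.2 ± 1.59 CPM in compound 28 and 19.8 ± 2.12 CPM in DMSO (SD, n = 3 each), and 20.4 CPM of the highest library was HBB. GP9 was at 0.626 ± 0.274 CPM in compound 28 and 1.20 ± 0.172 CPM in DMSO, so the list did not move as 1 class. Without compound 28 replicate 2, the library with HBB reads, the log2 changes of the 8 genes ran between 0.44 for PRTN3 and 1.17 for FCER1G.

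How the libraries are scaled decides the sign of these differences. In log2 change, a shift common to all genes separates the scalings, so the distance between the members' median and the median of all genes stayed at 1.02 to 1.04 under all 7. Each scaling has its own factor per library, so the spread within groups, and with it the calls, can change beyond that shift. The SE of LYZ ran from 0.23 with upper-quartile factors to 0.30 with ribosomal protein mRNAs. Upper-quartile factors raised every log2 change by 0.20, and 8 of the 8 genes were then called higher, beside 41.7% of all genes higher and 31.3% lower. TMM moved every change by -0.02. Scaling on gene reads only moved every change by -0.45. It left 6 of the 8 called higher, beside 23.2% of all genes higher and 50.7% lower, and put PRTN3 at -0.064 and LYZ at 0.05, neither of them called.

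Scaling on all reads of the table, counted to genes or not, moved every change by -0.71. AZU1, CTSG and FCER1G were still called higher, 3 of the 8, beside 17.6% of all genes higher and 58.0% lower, with log2 changes of 0.35, 0.41 and 0.41. The other 5 genes were not called, and PRTN3 (-0.33) and LYZ (-0.21) stood below 0. Scaling on 80 ribosomal protein mRNAs, which are known as long-lived transcripts, moved every change by -1.12, and 0 of the 8 were called higher, beside 12.3% of all genes. Under it FCER1G and CTSG were at 0.01 each and AZU1 at -0.055, while ELANE (-0.37) and PRTN3 (-0.73) were called lower, 2 of the 8, beside 67.8% of all genes.

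Scaling on the 13 mRNAs encoded in the mitochondrial genome, which another RNA polymerase transcribes, moved every change by -1.46. All members but MPO were then called lower in compound 28, 7 of the 8, beside 75.7% of all genes lower and 10.0% higher. FCER1G and CTSG were the least low at -0.33 each, AZU1 was at -0.40, and PRTN3 was the lowest at -1.07. The order of the 8 genes by log2 change is nearly fixed by the common shift, with FCER1G and CTSG at the upper end and PRTN3 at the lower end in all 7. No spike-in values were used, so which scaling gives the change per cell was not tested.

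**Figure D2:**
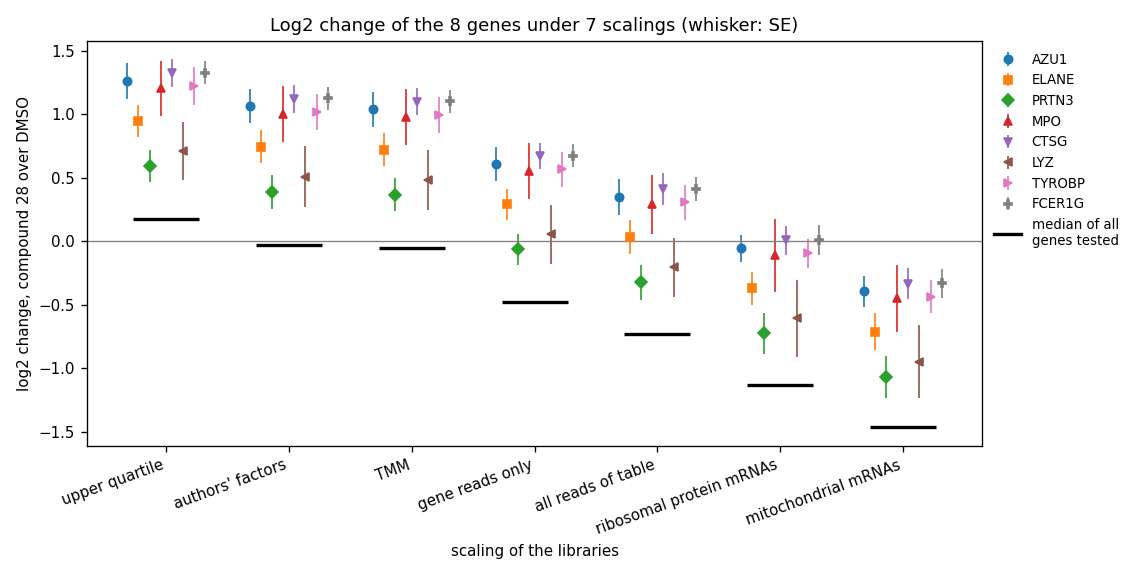
Log2 change, compound 28 over DMSO (y axis), of the 8 genes under 7 scalings of the libraries (x axis); points are genes, whiskers are standard errors, and the black bar is the median of all genes tested. The set moves down as 1 block, by -1.46 from the authors' factors to mitochondrial mRNAs, and keeps its distance from the median gene.

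Ratios between members within a library cancel any scaling factor. AZU1 reads were 5.17, 5.77 and 4.58 times those of ELANE in compound 28, against 4.26, 4.43 and 3.75 times in DMSO. AZU1 over PRTN3 stood at 4.43, 4.67 and 4.02 in compound 28 and at 3.07, 3.22 and 2.09 in DMSO. The 3 genes lie side by side, so the neighbours differed from one another between the groups in relative reads. ELANE over PRTN3 was 0.858, 0.809 and 0.878 in compound 28 and 0.721, 0.726 and 0.557 in DMSO. CTSG over ELANE was 0.592, 0.723 and 0.659 in compound 28 and 0.475, 0.563 and 0.479 in DMSO. In these 4 ratios the groups did not overlap.

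In 3 further ratios they overlapped. TYROBP over FCER1G, the adaptor pair, was 4.62, 4.88 and 5.08 in compound 28 and 6.30, 5.01 and 4.53 in DMSO. LYZ over AZU1 was 0.251, 0.233 and 0.245 in compound 28, against 0.215, 0.310 and 0.682 in DMSO. The DMSO libraries thus spread more widely than the compound 28 libraries in both ratios, with DMSO replicate 3 the highest for LYZ. MPO over ELANE averaged 0.0259 ± 0.00517 in compound 28 and 0.0227 ± 0.00972 in DMSO (SD, n = 3 each).

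**Figure D3:**
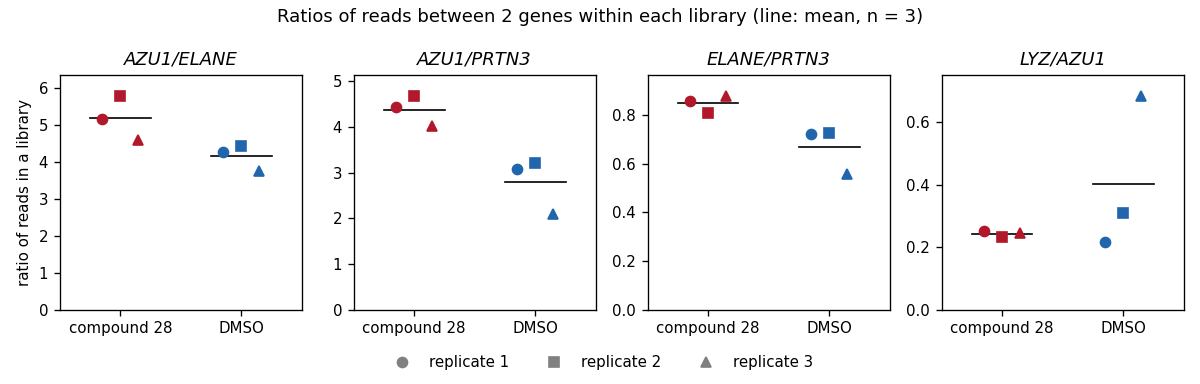
Ratio of reads between genes within each library (y axis, linear from 0) for 4 of the ratios; each point is 1 library and each line a mean (n = 3). The first 3 panels are apart between the groups, for example AZU1 over PRTN3 at 4.02 or more in compound 28 and at 3.22 or less in DMSO, and LYZ over AZU1 overlaps.

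Levels of different genes were compared per length, as TPM, in which the recovered reads are divided by exon length and each library sums to the same total. AZU1 was the most abundant in both groups, at 3251 ± 94.0 TPM in compound 28 and 2503 ± 385 TPM in DMSO (SD, n = 3 each). In compound 28 the next were TYROBP (1266 TPM), PRTN3 (1161 TPM) and ELANE (1101 TPM), whose neighbouring ranges overlapped, followed by LYZ at 800.2 TPM. In DMSO the order after AZU1 was PRTN3 (1427 TPM), ELANE (1048 TPM), TYROBP (1006 TPM) and LYZ (969 TPM), each overlapping its neighbour. Some of these places depend on the length used. With the longest transcript in place of all exons, TYROBP in compound 28 was at 1301 TPM or more and no longer overlapped PRTN3, at 1048 TPM or less. In DMSO, with that length, TYROBP averaged 1084 TPM and LYZ 822 TPM, both above ELANE at 772 TPM. In compound 28, ELANE (721 to 928 TPM) and LYZ (652 to 739 TPM) then overlapped, while with all exons they did not. The lower end had the same order in both groups without overlap: CTSG at 539 TPM in compound 28 and 394 TPM in DMSO, FCER1G at 245 TPM in compound 28 and 179 TPM in DMSO, and MPO at 8.18 TPM in compound 28 and 6.82 TPM in DMSO. MPO was thus present at a level far under that of the proteases with which it shares a granule.

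AZU1, PRTN3 and ELANE lie next to one another on chromosome 19, in that order, and their neighbours did not all do the same. CFD, which follows ELANE and encodes complement factor D, a serine protease of the alternative complement pathway, had 37711, 33863 and 39421 normalized counts in compound 28 and 16122, 13263 and 15294 in DMSO. CFD rose by 1.31 ± 0.10 on the log2 scale (SE; adjusted p = 1.4e-06, limma), more than any of the 3 granule genes beside it, but was not called under scaling on mitochondrial or ribosomal protein mRNAs. MED16, a Mediator subunit on the far side of CFD, had a log2 change of 0.26 (adjusted p = 0.023, limma). That call was lost when DMSO replicate 2, compound 28 replicate 1 or compound 28 replicate 3 was left out, and with gene reads only; scaling on all reads, ribosomal protein mRNAs or mitochondrial mRNAs called it lower. R3HDM4, next to it, fell to 3067 ± 216 normalized counts in compound 28, against 4220 ± 370 in DMSO (SD, n = 3 each; log2 change -0.46, adjusted p = 0.0013, limma), under every scaling run.

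On the other side of AZU1, PLPPR3, of the phospholipid phosphatase-related family, had 10857 ± 189 normalized counts in compound 28 and 9716 ± 1710 in DMSO (SD, n = 3 each; log2 change 0.17, adjusted p = 0.20, limma). PLPPR3 was called higher with upper-quartile factors or without DMSO replicate 1, and lower with gene reads only, all reads, ribosomal protein mRNAs and mitochondrial mRNAs. PTBP1, a splicing repressor, rose by 0.62 ± 0.11 on the log2 scale (SE; adjusted p = 0.00037, limma), a call that ended with gene reads only and with all reads and turned to lower under mitochondrial and ribosomal protein scaling. LINC01836 was not tested, with 0 reads in compound 28. Across these neighbours the log2 change ran from -0.46 in R3HDM4 to 1.31 in CFD.

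**Figure D4:**
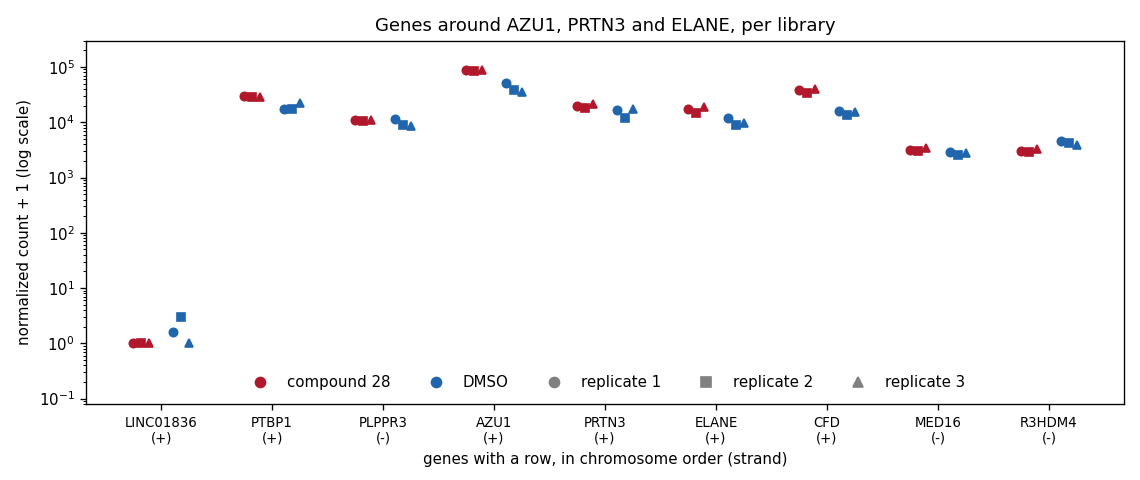
Normalized count + 1 (y axis, log scale) of the genes around AZU1, PRTN3 and ELANE in their order along chromosome 19 (x axis, not to scale, strand in brackets); each point is 1 library, compound 28 red and DMSO blue. CFD stands apart with compound 28 at 33863 or more and DMSO at 16122 or less, R3HDM4 stands apart the other way, and LINC01836 is at or near 0.

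Other azurophil granule genes were mostly higher with the authors' factors. Among 15 genes tested there were 13 that rose, 1 that fell and 1 not called, with a median log2 change of 0.92, beside 35.6% higher and 37.2% lower over all genes. Mitochondrial mRNA scaling gave 0 higher and 11 lower, beside 10.0% and 75.7% over all genes, and ribosomal protein scaling 0 higher and 5 lower, beside 12.3% and 67.8%. CTSB, a lysosomal cysteine protease, had 29274 ± 2037 normalized counts in compound 28 and 11941 ± 249 in DMSO (SD, n = 3 each; log2 change 1.29, adjusted p = 4.8e-07, limma). CTSB was not called under the mitochondrial and ribosomal protein scalings. PRSS57, another neutrophil serine protease of azurophil granules, had a log2 change of 1.05, close to that of AZU1. It was named after its values were seen, as was RNASE3, the eosinophil cationic protein, which was the uncalled gene (log2 change 0.19). PRSS57 was called lower under mitochondrial mRNA scaling and not called under ribosomal protein scaling. RNASE3 was called lower under both and with all reads, and higher without DMSO replicate 3.

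SRGN, serglycin, the proteoglycan that holds granule proteases in place, was the most abundant of the list. It had 96369, 85575 and 91614 normalized counts in compound 28 and 64540, 66975 and 73925 in DMSO (log2 change 0.41, adjusted p = 0.0053, limma). Its direction rests on the scaling, since it was not called with gene reads only and was called lower with all reads and with mitochondrial and ribosomal protein mRNAs. STOM, stomatin, a membrane protein of granules, fell (log2 change -0.30, adjusted p = 0.019, limma). The STOM call was lost when DMSO replicate 2, compound 28 replicate 2 or compound 28 replicate 3 was left out, and with upper-quartile factors. DEFA1, DEFA1B, DEFA3 and DEFA4, the defensins of these granules, had no row, and NEU1 was too low to test.

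Genes of granules that form later in neutrophil development were largely near 0. Only 8 of 22 could be tested; LCN2, MMP8, CEACAM8, OLFM4 and CRISP3 had no row, and LTF, CAMP and MMP9 were among 9 that were too low. Of these 8 genes 5 rose, 2 fell and 1 was not called (median log2 change 0.72), beside 35.6% higher and 37.2% lower over all genes. Some of these calls rest on few reads. HP (0.416 CPM) and ARG1 (0.570 CPM) were among those that rose, and PGLYRP1 (0.311 CPM) among those that fell. The PGLYRP1 call was lost in several settings, upper-quartile factors among them. CYBA (1101 CPM) and CHI3L1 (433 CPM) were far from 0. Under mitochondrial mRNA scaling HP and ARG1 were the 2 genes called higher and 6 were lower, and the share of lower genes was near the 75.7% over all genes. The pair of subunits of the phagocyte NADPH oxidase membrane complex went opposite ways. CYBA had 57716 ± 2992 normalized counts in compound 28 and 27503 ± 4534 in DMSO (SD, n = 3 each; log2 change 1.08, adjusted p = 1.9e-05, limma), was lower under mitochondrial mRNA scaling and was not called under ribosomal protein scaling. CYBB had 389, 253 and 317 normalized counts in compound 28 and 424, 504 and 718 in DMSO (log2 change -0.76, adjusted p = 0.0079, limma), lower under every scaling run.

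The list of protease processing and inhibitor genes also holds general chaperones such as CANX and inhibitors of cysteine cathepsins such as CSTA. These were among the genes that rose, while SERPINB1 and SERPINB8 were the 2 that fell. Of 13 genes tested, 8 were called higher, 2 lower and 3 not called (median log2 change 0.54). Over all genes, 35.6% were higher and 37.2% lower. Gene reads only gave 4 higher and 4 lower, beside 23.2% and 50.7% over all genes, and mitochondrial mRNA scaling 0 higher and 11 lower, beside 10.0% and 75.7%. CTSC, the activator of the serine protease zymogens, had 4851 ± 326 normalized counts in compound 28 and 5337 ± 626 in DMSO (SD, n = 3 each; log2 change -0.13, adjusted p = 0.25, limma), and was called lower with gene reads only, all reads, ribosomal protein mRNAs and mitochondrial mRNAs. SERPINB1, an intracellular inhibitor of elastase, proteinase 3 and cathepsin G, fell (log2 change -0.80, adjusted p = 1.8e-05, limma). CTSC and SERPINB1 were named after their values were seen.

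SERPINB8, a related intracellular serpin, fell to 864 ± 49.7 normalized counts in compound 28, against 2756 ± 511 in DMSO (SD, n = 3 each; log2 change -1.66, adjusted p = 1.2e-06, limma). SERPINB1 and SERPINB8 were lower under every scaling run. CSTA, an inhibitor of cysteine cathepsins, had 9015 ± 597 normalized counts in compound 28 and 4129 ± 409 in DMSO (SD, n = 3 each; log2 change 1.13, adjusted p = 2.5e-06, limma). CANX, calnexin, a chaperone of the endoplasmic reticulum, was the most abundant of this list and rose (log2 change 0.54, adjusted p = 0.0010, limma). Mitochondrial mRNA scaling called CSTA and CANX lower, ribosomal protein scaling ended the call of CSTA and turned that of CANX to lower, and gene reads only or all reads ended that of CANX.

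Receptors and adaptors that signal through ITAMs were spread to both sides. The 16 genes tested split into 4 that rose, 8 that fell and 4 not called (median log2 change -0.27), beside 35.6% higher and 37.2% lower over all genes. Mitochondrial mRNA scaling gave 1 higher and 14 lower, beside 10.0% and 75.7%. MS4A2, the beta chain of the high-affinity IgE receptor, which FCER1G completes, had 326, 309 and 294 normalized counts in compound 28 and 110.0, 80.3 and 72.4 in DMSO. Its log2 change was 1.83 (adjusted p = 1.4e-05, limma), not called under mitochondrial mRNA scaling. OSCAR, a collagen receptor that uses FCER1G, was the most abundant of the list and rose (log2 change 0.88, adjusted p = 0.00012, limma), but was not called with all reads or ribosomal protein mRNAs and was lower with mitochondrial mRNAs.

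The largest fall among these receptors was in FCGR1B (log2 change -2.31, adjusted p = 5.8e-06, limma). It had 95.5, 61.6 and 101 normalized counts in compound 28 and 454, 471 and 351 in DMSO. FCGR1B is a near copy of FCGR1A, the high-affinity IgG receptor that pairs with FCER1G, so reads could be split between them and its value is uncertain. FCGR1A, named for that reason, had a log2 change of -1.98 (adjusted p = 2.9e-07, limma). TREM2 and SIRPB1, named as partners of TYROBP after their values were seen, fell as well, with log2 changes of -0.42 and -0.56 (adjusted p = 0.012 and 0.0033, limma). The TREM2 call was lost with upper-quartile factors. TREM1 (1.44 CPM) and CLEC5A (0.556 CPM), of the same list, were not called, with log2 changes of -0.01 and -0.11. Both were called lower under mitochondrial mRNA scaling. FCGR1A, FCGR1B and SIRPB1 were lower under every scaling run.

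Downstream of the adaptors, 5 of 18 kinases and effectors rose and 6 fell, and the remaining 7 were not called (median log2 change 0.00). The shares, 27.8% higher and 33.3% lower, were near those over all genes, 35.6% and 37.2%. Upper-quartile factors gave 9 higher, beside 41.7% over all genes, and mitochondrial mRNAs 0 higher and 18 lower, beside 10.0% and 75.7%. SYK, the kinase that binds the ITAM and named for that role, had 12956 ± 1012 normalized counts in compound 28 and 11074 ± 1952 in DMSO (SD, n = 3 each; log2 change 0.24, adjusted p = 0.10, limma). SYK was called higher with upper-quartile factors or without DMSO replicate 3, and lower with all reads, ribosomal protein mRNAs and mitochondrial mRNAs. PTPN6, the phosphatase SHP-1 that restrains this pathway, fell to 7496 ± 819 normalized counts in compound 28, against 22164 ± 1254 in DMSO (SD, n = 3 each; log2 change -1.57, adjusted p = 3.2e-07, limma), under every scaling run. CBL, a ubiquitin ligase for SYK, and GRB2, an adaptor of growth signalling and the most abundant of the list, rose by log2 changes of 0.90 and 0.89 (adjusted p = 0.00045 and 0.00010, limma). Both were lower under mitochondrial mRNA scaling and were not called with ribosomal protein mRNAs or all reads.

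**Figure D5:**
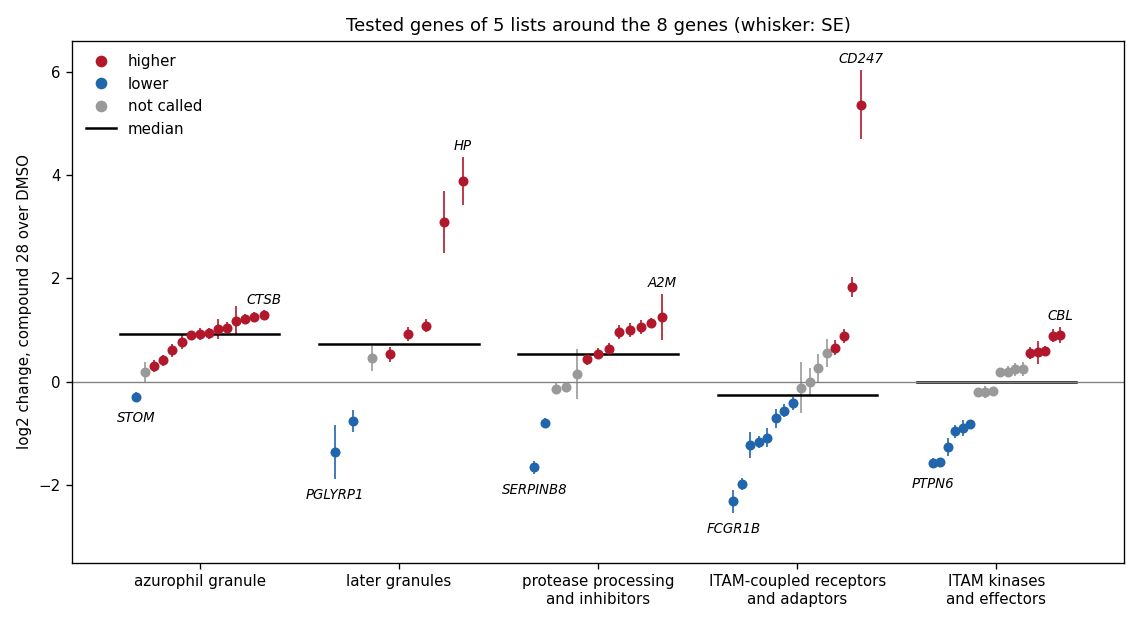
Log2 change, compound 28 over DMSO (y axis), of the tested genes of 5 related lists (x axis), with the authors' factors; each point is 1 gene with its standard error, coloured by its call, and the bar is the list's median. The medians run from 0.92 for azurophil granule genes to -0.27 for ITAM-coupled receptors and adaptors; CD247 and HP, labelled at the top, had few or no reads in DMSO, and mitochondrial mRNA scaling shifts all changes by -1.46.

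The 8 genes were not alike in profile across the 6 libraries. On centred log2(normalized count + 1), AZU1 and TYROBP were the closest pair, at a Euclidean distance of 0.139, although they differ in chromosome arm and function. LYZ and TYROBP were the farthest apart, at 1.44. LYZ was closest to MPO, at 0.691, the pair that shared a high DMSO replicate 3. Among 10534 genes outside the set with a mean of at least 5 CPM, the gene nearest to AZU1 was FBRSL1 (0.0900), and that nearest to FCER1G was RPL22, a ribosomal protein gene (0.0856). GPX4, a lipid peroxidase, was nearest to ELANE (0.0863), GUK1, guanylate kinase, to TYROBP (0.107) and NOP53, a ribosome assembly factor, to CTSG (0.132). FBXW9, an F-box protein gene, was nearest to PRTN3 (0.163). The nearest genes to LYZ, FYB1, an adaptor of immune cells (0.293), and to MPO, RP11-312O7.2 (0.286), were farther off. These distances rest on 6 libraries of the same contrast and were not tested.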

How the data were processed

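Polyadenylated RNA was sequenced in 6 libraries, 3 per group, after TRIzol extraction and a stranded kit, per the labels' protocols. The submitters' processing notes name HISAT2, HTSeq, fastp, SAMtools and StringTie and the builds GRCh37 and hg19, with versions and settings not given in the sources used here. For each gene the authors deposited a normalized signal, which the values show to be a read count divided by 1 size factor per library, equal to the median-of-ratios factor recomputed here. Of the values above 0, 100% were whole reads within 0.01 read. A log2 fold change, its error and test statistic (each a score here) and p-values were also deposited per gene and served as an alternative, called the authors' deposited table. Rows that name no gene (5) held 40.4% to 46.9% of reads in compound 28 and 30.4% to 32.8% in DMSO and were left out, as were 54 further rows not used here.

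The members and lists were chosen with earlier results of these data known. The main test was limma-trend 3.58.1 in R 4.3.3 on log2(normalized count + 1), after the edgeR filter filterByExpr on recovered reads, with Benjamini-Hochberg adjustment over 18326 genes and calls at an adjusted p under 0.05. It understates the change of low genes. The edgeR 4.0.16 quasi-likelihood test on the recovered reads, run as an alternative, called 6532 genes higher and 6761 lower; DESeq2 1.42.0 was another. Scalings, pseudocounts, filters and leaving out each library were the further alternatives. On simulated counts the limma step was checked against known fold changes. TPM used the union of a gene's exons or, as an alternative, its longest transcript, from GENCODE release 29 (GRCh38), which had a length for 95.6% of rows. Named genes were the members, in each list the called gene with the largest rise and fall among those of at least 5 CPM in the higher group and the most abundant gene, the nearest profile of each member, 3 neighbours on each side of the chromosome 19 cluster, and the most abundant gene of each marker list. Further genes of the marker and context lists were named outside this rule, for their role or after their values were seen. Libraries of a group differed by more than counting noise. The chi-square per gene was 13.2 to 20.0 between compound 28 libraries. In DMSO it was 16.8 for replicates 1 and 2, 64.55 for 1 and 3, and 33.6 for 2 and 3. By this measure DMSO replicate 3 stood farthest from the rest of its group.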

Additional observations from a re-analysis of the deposited data

Results flagged for a closer look

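The rows of the table that name no gene, which hold reads the counting gave to no gene, were outside every comparison above. They took 43.1% ± 3.36 of all reads in the compound 28 libraries and 31.9% ± 1.36 in the DMSO libraries (SD, n = 3 each), and the groups did not overlap. Scaling on all reads, which includes them, moved the log2 changes of the 8 genes by -0.71. Of the 8, 3 were then called higher, beside 17.6% of all genes higher and 58.0% lower. Their part in the values of the 8 genes beyond that shift was not tested.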

How the results depend on the processing

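The scaling changed the results most. Over all genes, 4257 were higher with gene reads only, 3221 with all reads, 2262 with ribosomal protein mRNAs and 1839 with mitochondrial mRNAs. In turn 10628 were lower with all reads, 12424 with ribosomal protein and 13880 with mitochondrial mRNAs. Among the smaller set of genes of at least 5 CPM, 3618 were higher and 4663 lower with the authors' factors. Of the 8 genes, 3 were higher with all reads, 0 with ribosomal protein and 0 with mitochondrial mRNAs, beside 17.6%, 12.3% and 10.0% of all genes. Lower were 2 with ribosomal protein and 7 with mitochondrial mRNAs, beside 67.8% and 75.7% of all genes. With mitochondrial and then ribosomal protein mRNAs the log2 changes turned to -0.40 and -0.055 for AZU1, -0.71 and -0.37 for ELANE, -1.07 and -0.73 for PRTN3, -0.45 and -0.11 for MPO, -0.95 and -0.61 for LYZ, and -0.44 and -0.10 for TYROBP. With mitochondrial mRNAs CTSG was at -0.33 and FCER1G at -0.33. PRTN3 was also at -0.064 with gene reads only and at -0.33 with all reads, where LYZ was at -0.21.

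In the lists, mitochondrial mRNAs gave 0 higher and 11 lower azurophil granule genes, ribosomal protein mRNAs 0 and 5, all reads 4 and 4, and upper quartile 0 lower. Later granule genes came to 2 higher and 6 lower with mitochondrial mRNAs, 2 and 4 with ribosomal protein mRNAs and 3 higher with all reads; among genes of at least 5 CPM 3 were higher and 1 lower, and 1 was lower with upper quartile, without a filter, in DESeq2, in the authors' deposited table and with the replicate block. Processing and inhibitor genes came to 4 higher and 4 lower with gene reads only, 0 and 11 with mitochondrial mRNAs, 0 and 7 with ribosomal protein mRNAs, and 1 and 4 with all reads. ITAM receptors and adaptors came to 1 higher and 14 lower with mitochondrial mRNAs, 2 and 11 with ribosomal protein mRNAs, and 2 and 9 with all reads. Among genes of at least 5 CPM, 2 of them were higher and 7 lower. ITAM kinases and effectors came to 2 higher and 11 lower with gene reads only, 9 higher with upper quartile, 0 and 18 with mitochondrial mRNAs, 0 and 16 with ribosomal protein mRNAs, and 0 and 13 with all reads. Over all genes, mitochondrial mRNAs gave 10.0% higher and 75.7% lower, ribosomal protein mRNAs 12.3% and 67.8%, and all reads 17.6% and 58.0%. Gene reads only gave 23.2% and 50.7%, and upper quartile 41.7% and 31.3%. Fewer genes were tested at 5 CPM or more, with 4 later granule genes and 9 ITAM receptors and adaptors. Over all genes at that filter, 3618 were higher and 4663 lower. The cause of the other differences was not tested beyond the common shift of each scaling.

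With each library left out in turn, 6244 to 6903 genes were higher and 6239 to 6834 lower, 6 to 8 of the 8 genes were higher and 0 lower, and the lists ran from 12 to 14 higher and 0 to 1 lower (azurophil), 5 to 6 and 1 to 2 (later granules), 7 to 8 and 2 to 3 (processing and inhibitors), 4 and 8 (ITAM receptors and adaptors), and 4 to 8 and 6 to 9 (ITAM kinases and effectors). The fit with the replicate block called 6546 genes higher and 6768 lower and all 8 members higher, LYZ included (0.51); deviations of same-numbered libraries correlated at -0.027, 0.038 and 0.064 across genes, not every library correlated best with its own number, and the numbers are taken as shared only. With the longest transcript as length, compound 28 and DMSO levels were 2558 and 1919 TPM for AZU1, 831 and 772 for ELANE, 410.2 and 292 for CTSG, and 303 and 215 for FCER1G, and compound 28 levels were 971 for PRTN3, 6.78 for MPO, 697 for LYZ and 1399 for TYROBP, which in DMSO was at 1084. Pseudocounts of 0.5 and 8 and the edgeR test left all calls of the 8 genes as they were. With 3 libraries a group, small changes such as that of PRTN3 are at the edge of what the spread allows; MPO, at 8.18 TPM in compound 28 and 6.82 TPM in DMSO, rests on the fewest reads.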
